A study of Mus musculus with 22 samples.

Results

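The genes described here are 10 members of the interleukin 6 (IL-6) family, suppressor of cytokine signaling (SOCS) and colony stimulating factor 1 (CSF1) pathways, measured in CD11b+ cells of the mouse brain. They were chosen as a list of symbols: the receptor subunits Il6ra and Il6st, the ligands Osm and Csf1, the kinase Jak2 and the transcription factor Stat3, the inhibitors Socs1, Socs3 and Cish, and the kinase Pim1. All 10 were found among the 56691 genes of the deposited tables, and all 10 passed the filter on low counts in every comparison.

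The study asked what a model of neonatal hypoxic-ischemic encephalopathy (HIE) does to microglia and other CD11b+ cells shortly after the insult and later. Wild-type pups of the outbred CF-1 strain were used throughout, and CD11b+ cells were enriched from whole brain on magnetic beads. Bulk RNA sequencing gave 22 libraries from 20 animals, 4 in each of 5 groups, and 2 of the P14 HIE animals had 2 libraries that were summed. HIE pups came from dams given lipopolysaccharide (LPS) on E18 and were made hypoxic on P6, while the study's control arm was saline for the dam and normoxia for the pups. The groups were HIE and control on P7, and HIE, hypoxia and control on P14. The sources used here do not say whether the dams of the hypoxia group received LPS or saline. The sample labels give the P7 controls as P8, P9, P10 and P11, 1 animal each, whereas the study's methods give P7, which was used. These labels split by litter, with P8 and P9 in P6H63 and P10 and P11 in P6H55 (both defined below), so that litter and labelled age cannot be told apart. CF-1 mice are outbred, so pups of different dams differ genetically. Animal names carry a prefix shared by 2 animals of a group, called a litter below. On P7 the HIE litters were N5 and N8 and the control litters P6H63 and P6H55. On P14 the HIE and control groups each held 2 animals with names starting P4H and 2 with P6H, whereas all 4 hypoxia animals were P6H. All 4 P7 HIE pups were labelled male, and each control litter had 1 male and 1 female. Xist and Ddx3y levels matched the sex label in 18 of 20 animals. P7 HIE replicate 1, labelled male, had 2239 CPM of Xist and no Ddx3y, and P7 control replicate 4, labelled female, had neither gene above 10 CPM. Where nothing says that animals of a litter are independent, p-values measure the spread between these animals only.

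Depth was 70191578 to 83469094 counts per library on P7 and 29751544 to 46404112 on P14, so that 3 counts, taken as the smallest level told from 0, lay at or under 0.101 CPM in every library. This covers counting error only. Levels are CPM, counts scaled to a fixed library total, with library sizes adjusted within each day by the trimmed mean of M-values (TMM). CPM of P7 and P14 are therefore not on a common scale, and fold changes between the days come from fits over both days. The P6H63 controls stood apart from the other P7 animals. The summed level of 15 microglia markers was 3564 and 2628 CPM there, against 15482 and 14852 CPM in the P6H55 controls and 16976 to 20135 CPM in P7 HIE. Their border-associated macrophage markers summed to 535 and 410 CPM, against 2358 to 4101 CPM in the other P7 animals, and their immediate early genes to 5740 and 4774 CPM against 15151 to 18278 CPM. Endothelial, mural, astrocyte and neuron marker sums were highest in these 2 animals among those of P7. Other marker sums separated P7 HIE from the P6H55 controls as well. Microglia and immediate early sums were lower in P6H55, the latter at 15151 and 15701 CPM against 16422 to 18278 CPM in HIE. Choroid plexus sums were higher, at 4394 and 5025 CPM in P6H55 and 3987 and 10211 CPM in P6H63 against 1379 to 2495 CPM in HIE. Endothelial (765 and 798 against 535 to 699 CPM) and mural sums (658 and 673 against 479 to 633 CPM) were higher in P6H55 too, and the part of these markers in the P7 results was not tested. The defining microglia markers were above 3 counts in every group, and T and NK cell markers summed to under 0.84 CPM in every animal. In bulk samples fewer cells of a type and less RNA per cell cannot be told apart. Each P7 result is therefore given against all 4 controls and against each litter.

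**Figure D1:**
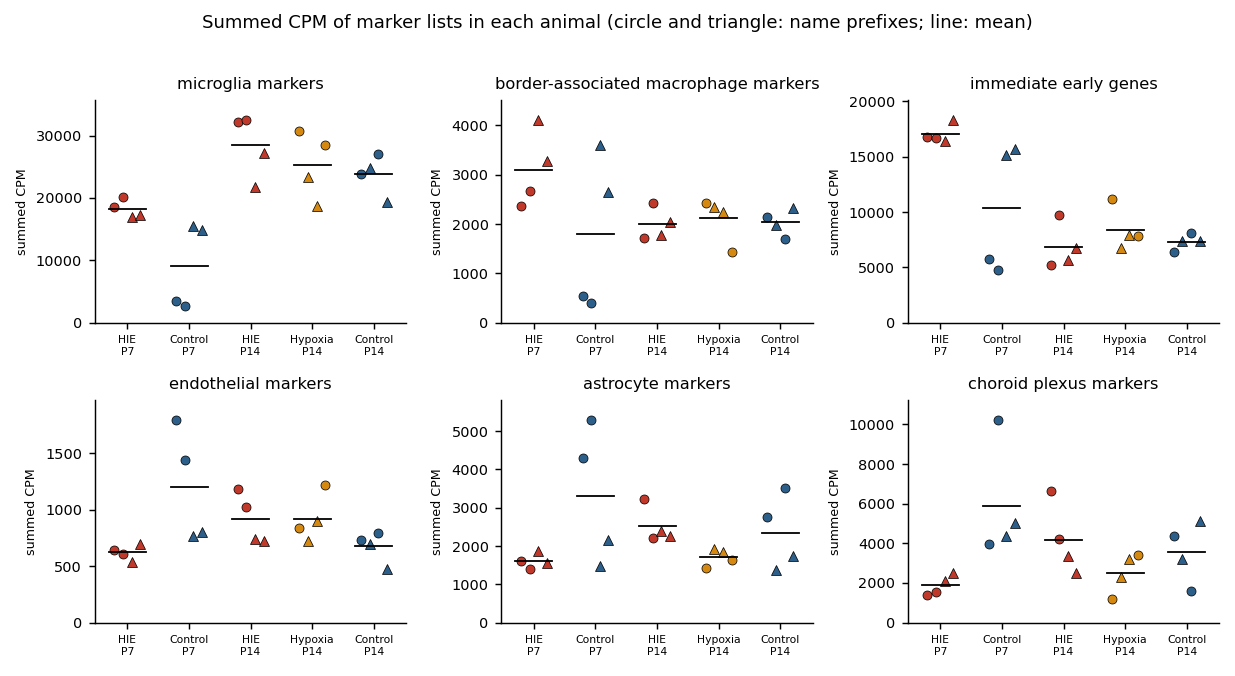
Summed CPM (TMM-scaled, linear axes from 0) of 6 marker lists in each of the 20 animals by group, with circles and triangles for the 2 name prefixes of a group and a line for the mean. The circles of the P7 control group, the P6H63 litter, lie lowest on microglia markers at 3564 and 2628 CPM, and high on endothelial and astrocyte markers.

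The IL-6 family cytokines, among them IL-6, oncostatin M and leukemia inhibitory factor, signal through receptors that share the subunit encoded by Il6st. Receptor-bound JAK kinases then phosphorylate STAT3, which enters the nucleus and turns on targets that include Socs3, an inhibitor of the same receptor, and Pim1. CSF1 acts on a different kind of receptor, the tyrosine kinase CSF1R, on which microglia depend for survival, and SOCS1 and CISH mostly restrain receptors of interferons and of cytokines that use STAT5.

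All coordinates are of GRCm39. Il6ra (ENSMUSG00000027947.12) lies on the minus strand at chr3:89771366-89820719 and Csf1 (ENSMUSG00000014599.11) on the minus strand at chr3:107648364-107667806. Chromosome 11 holds Osm (ENSMUSG00000058755.4, plus strand, chr11:4186420-4191026), Stat3 (ENSMUSG00000004040.17, minus strand, chr11:100775924-100830450) and Socs3 (ENSMUSG00000053113.4, minus strand, chr11:117856905-117860898). Il6st (ENSMUSG00000021756.13) is on the plus strand at chr13:112600604-112646620 and Jak2 (ENSMUSG00000024789.14) on the plus strand at chr19:29228677-29290505. Socs1 (ENSMUSG00000038037.6) is on the minus strand at chr16:10600104-10603875, Cish (ENSMUSG00000032578.8) on the plus strand at chr9:107173225-107179983 and Pim1 (ENSMUSG00000024014.9) on the plus strand at chr17:29709581-29715086. All 10 are annotated as protein coding.

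The STAT motif TTCNNNGAA, searched on both strands from 250 bases before to 50 bases after the start of each gene's canonical GENCODE transcript, was found in 3 of the 10 genes and in 8.81% of 21770 promoters of the same length. The 3 matches are shown because 2 of these genes, Socs1 and Socs3, encode inhibitors of JAK and STAT signaling, with the match in capitals and the gene's own strand printed 5′ to 3′. The match began 138 bases before the start of Jak2 (chr19:29228529-29228557), 22 bases after that of Socs1 (chr16:10603835-10603863) and 223 bases before that of Socs3 (chr11:117860328-117860356).
Jak2: aagcggtcccTTCGCAGAAgtggtggtta
Socs1: gctagccgggTTCCAAGAAgggtcgagat
Socs3: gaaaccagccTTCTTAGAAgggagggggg
The AP-1 motif TGANTCA, searched in the same way, was found in 0 of the 10 windows and in 7.14% of all promoters. The NF-kB consensus was found in 1 of the 10, Csf1, and in 4.87% of all promoters. The 250 bases upstream of the 2 ligand genes are shown, since Osm and Csf1 had the largest differences between HIE pups and the P6H55 controls below and neither stretch overlaps an annotated exon. They are chr11:4186170-4186419 on the plus strand for Osm and chr3:107667807-107668056 on the minus strand for Csf1, where capitals mark the NF-kB match, which begins 133 bases before the start. A match describes the letters only.
Osm: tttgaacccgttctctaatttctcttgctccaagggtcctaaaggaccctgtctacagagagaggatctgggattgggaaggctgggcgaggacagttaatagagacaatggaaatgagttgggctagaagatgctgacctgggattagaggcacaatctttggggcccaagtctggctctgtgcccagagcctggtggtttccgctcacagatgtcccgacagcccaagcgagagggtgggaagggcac
Csf1: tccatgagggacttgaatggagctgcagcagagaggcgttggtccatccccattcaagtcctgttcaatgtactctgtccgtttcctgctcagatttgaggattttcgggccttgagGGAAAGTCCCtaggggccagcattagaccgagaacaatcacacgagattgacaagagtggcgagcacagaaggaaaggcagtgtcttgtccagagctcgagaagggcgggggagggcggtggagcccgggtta

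Per kb of exon, the most abundant of the 10 transcripts in P7 HIE were Csf1, with a median of 87.5 CPM per kb, and Socs3 with 71.0 CPM per kb, whose ranges overlapped. Osm, Il6ra and Il6st followed at 44.7, 43.3 and 40.3 CPM per kb with overlapping ranges, and lay above Pim1 (26.6), Stat3 (18.4) and Jak2 (12.1), which were each separated from the next. Socs1 and Cish were lowest at 0.877 and 0.741 CPM per kb. In the P6H55 controls Socs3, at 55.9 CPM per kb, and Csf1 again headed the order with overlapping ranges. In the P6H63 controls Socs3 was first at 45.8 CPM per kb, and Osm and Il6ra stood at 6.16 and 5.90 CPM per kb, below Pim1 at 8.74. On P14 Socs3 had the highest median in all 3 groups, at 49.3 (HIE), 61.4 (hypoxia) and 57.1 (control) CPM per kb, while its range overlapped that of Il6st in HIE. Csf1 was then among Osm, Stat3 and Jak2, with medians of 14.8, 12.8 and 15.0 CPM per kb in HIE, hypoxia and control.

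**Figure D2:**
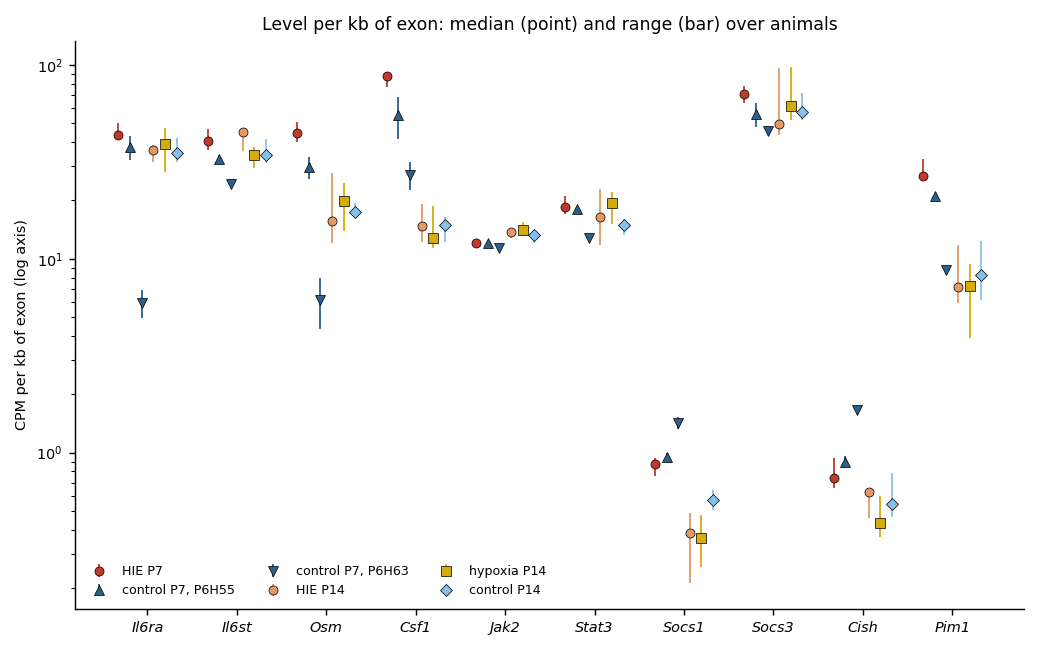
Level of each of the 10 genes in CPM per kb of exon on a log axis, with the median of the animals as a point and their lowest and highest values as a bar, for the 3 P14 groups, P7 HIE and the 2 P7 control litters. CPM were scaled within each day. Csf1 went from 87.5 CPM per kb in P7 HIE to 14.8 in P14 HIE, and Socs1 and Cish stayed at or under 1.72 in every animal.

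On P7, HIE pups had more Osm, Csf1, Il6st and Pim1 mRNA than every control pup of either litter, but none of the 10 genes passed an adjusted p of 0.05 against all 4 controls. By edgeR's quasi-likelihood test 0 of the 10 were called, beside 0.0666% of 22517 genes tested, and 6 had an unadjusted p under 0.05. DESeq2 called 3 of the 10, Il6st, Csf1 and Socs3, all higher in HIE, beside 13.4% of all genes. The median log2 fold change was 0.49 over the 10 genes and -0.08 over all genes tested. HIE and control animals did not overlap for 4 of the 10 genes, beside 17.0% of all genes. Against the P6H63 controls 9 of the 10 were called, 7 higher and 2 lower, beside 58.5% of all genes, with a median of 0.72 over the 10 and -0.02 over all genes. Against the P6H55 controls edgeR called 0 of the 10, beside 0.112% of all genes, with 5 at an unadjusted p under 0.05, and DESeq2 called 3, Osm, Csf1 and Pim1, beside 4.20% of all genes. The median there was 0.29 over the 10 and -0.02 over all genes, and the same 4 genes did not overlap, beside 25.7% of all genes. These comparisons share the HIE pups. The sex labels differ between the groups, and among animals labelled male edgeR called 0 of the 10, beside 13 of 23274 genes. That set keeps P7 HIE replicate 1, which had Xist and no Ddx3y, so it cannot settle the part of sex.

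**Figure D3:**
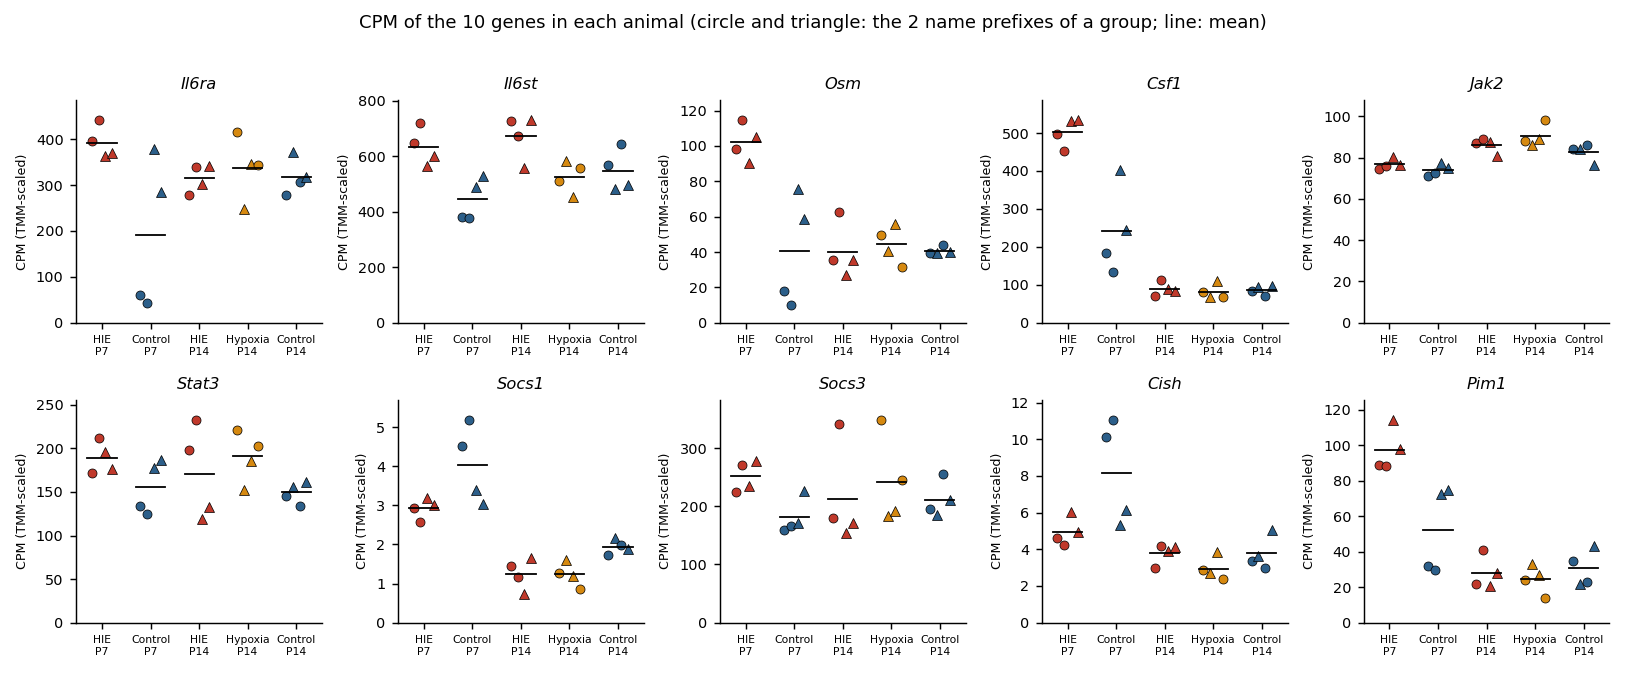
CPM (TMM-scaled, linear axes from 0) of each of the 10 genes in the 20 animals by group, with circles and triangles for the 2 name prefixes of a group and a line for the mean. On P7 all 4 HIE points lie above all 4 control points for Il6st, Osm, Csf1 and Pim1. The P6H63 controls (circles) are the lowest P7 points for Il6ra, Il6st, Osm, Csf1, Jak2, Stat3, Socs3 and Pim1. They are the highest for Socs1 and Cish.

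Among the receptor subunits, Il6ra, which binds IL-6 itself, was at 396, 441, 363 and 371 CPM in P7 HIE pups, at 60.8 and 43.9 CPM in the P6H63 controls and at 379.5 and 285 CPM in the P6H55 controls. The HIE range held 1 of the P6H55 values, and the P6H63 litter was far below everything else. The log2 fold change of Il6ra was 1.03 ± 0.64 (SE) against all controls with an adjusted p of 0.298, 2.94 ± 0.16 against P6H63 (adjusted p = 1.17e-05) and 0.25 ± 0.14 against P6H55 (adjusted p = 0.398). Il6st, the shared signal-transducing subunit, was at 647, 721, 565 and 603 CPM in HIE, at 379.7 and 378.5 CPM in P6H63 and at 490.4 and 529 CPM in P6H55. All HIE pups lay above all controls, and the control litters were closer to each other than for Il6ra. Its log2 fold change was 0.51 ± 0.16 against all controls (adjusted p = 0.15), 0.78 ± 0.10 against P6H63 (adjusted p = 0.000506) and 0.32 ± 0.11 against P6H55 (adjusted p = 0.245). Both subunits passed the test against P6H63, the litter with low microglia marker sums, and not against P6H55, and the part of those markers in the result was not tested.

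Of the ligands, Osm, which encodes oncostatin M, a cytokine made largely by myeloid cells, was at 98.0, 114, 90.4 and 105 CPM in P7 HIE pups, at 18.2 and 9.82 CPM in P6H63 and at 75.6 and 59.0 CPM in P6H55. HIE pups were above every control, and the P6H55 litter lay nearer to HIE than to the other control litter. The log2 fold change of Osm was 1.33 ± 0.57 against all controls (adjusted p = 0.182), 2.90 ± 0.25 against P6H63 (adjusted p = 5.68e-05) and 0.61 ± 0.13, or 1.52-fold, against P6H55 (adjusted p = 0.175 by edgeR and 0.0019 by DESeq2). Csf1, a growth and survival factor for microglia, was at 497, 452, 532 and 533 CPM in HIE, at 185 and 134 CPM in P6H63 and at 402 and 244.5 CPM in P6H55. The lowest HIE pup was above the highest control, with a wide gap between the 2 P6H55 controls. Its log2 fold change was 1.06 ± 0.31 against all controls (adjusted p = 0.15), 1.70 ± 0.15 against P6H63 (adjusted p = 5.82e-05) and 0.65 ± 0.19, or 1.56-fold, against P6H55 (adjusted p = 0.223 by edgeR and 0.0166 by DESeq2). Without P7 control replicate 3, the higher of the P6H55 pair, the log2 fold change against the remaining P6H55 control was 0.83 for Osm and 1.08 for Csf1. A lone control gives no spread of its own, so no call is given for this fit.

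The signal carriers had the smallest log2 fold changes of the 10 in each of the 3 comparisons. Jak2, the kinase bound to many of these receptors, was at 74.5, 76.2, 80.3 and 76.5 CPM in P7 HIE, at 71.3 and 72.7 CPM in P6H63 and at 77.2 and 74.9 CPM in P6H55. The groups overlapped and the whole P7 range spanned 71.3 to 80.3 CPM. For Jak2 the log2 fold change was 0.05 ± 0.07 against all controls (adjusted p = 0.62, 95% interval -0.09 to 0.19), 0.13 ± 0.06 against P6H63 (adjusted p = 0.0841) and 0.02 ± 0.06 against P6H55 (adjusted p = 0.887), and all 3 values turned negative when CPM was scaled by library size alone. Stat3, the transcription factor of IL-6 family signaling, was at 172, 212, 196 and 176 CPM in HIE, at 134 and 125 CPM in P6H63 and at 178 and 186 CPM in P6H55. The P6H55 controls sat inside the HIE range and the P6H63 controls below it. Its log2 fold change was 0.28 ± 0.16 against all controls (adjusted p = 0.259), 0.58 ± 0.10 against P6H63 (adjusted p = 0.00156) and 0.06 ± 0.10 against P6H55 (adjusted p = 0.787), and the call against P6H63 was lost with library size alone, at 0.20 and an adjusted p of 0.116.

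The inhibitors did not share a direction. Socs3, a STAT3 target that inhibits the IL-6 receptor complex, was at 225, 271, 234 and 277 CPM in P7 HIE pups, at 159.7 and 167 CPM in P6H63 and at 171 and 227 CPM in P6H55. Only P7 control replicate 4, at 227 CPM, reached the HIE range. The log2 fold change of Socs3 was 0.48 ± 0.14 against all controls (adjusted p = 0.15), 0.66 ± 0.10 against P6H63 (adjusted p = 0.000926) and 0.35 ± 0.13 against P6H55 (adjusted p = 0.271). Socs1 was at 2.93, 2.58, 3.18 and 3.00 CPM in HIE, at 4.51 and 5.18 CPM in P6H63 and at 3.40 and 3.05 CPM in P6H55. Its P6H63 values were the highest among the P7 animals. For Socs1 the log2 fold change was -0.46 ± 0.21 against all controls (adjusted p = 0.187), -0.69 ± 0.15 against P6H63 (adjusted p = 0.00582) and -0.13 ± 0.16 against P6H55 (adjusted p = 0.723). Cish, an early target of STAT5, was at 4.60, 4.23, 6.02 and 4.92 CPM in HIE, at 10.1 and 11.0 CPM in P6H63 and at 5.33 and 6.17 CPM in P6H55. Again the P6H63 litter was apart, on the high side, and the P6H55 litter overlapped HIE. Its log2 fold change was -0.72 ± 0.26 against all controls (adjusted p = 0.154), -1.06 ± 0.16 against P6H63 (adjusted p = 0.000811) and -0.21 ± 0.17 against P6H55 (adjusted p = 0.573).

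Pim1, a serine/threonine kinase whose gene STAT proteins induce, was at 89.0, 88.4, 114 and 97.8 CPM in P7 HIE pups, at 32.0 and 29.3 CPM in P6H63 and at 72.5 and 74.6 CPM in P6H55. HIE lay above both litters, and each control litter was tight. The log2 fold change of Pim1 was 0.90 ± 0.33 against all controls (adjusted p = 0.154), 1.70 ± 0.12 against P6H63 (adjusted p = 2.61e-05) and 0.41 ± 0.11, or 1.33-fold, against P6H55 (adjusted p = 0.207 by edgeR and 0.0253 by DESeq2).

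**Figure D4:**
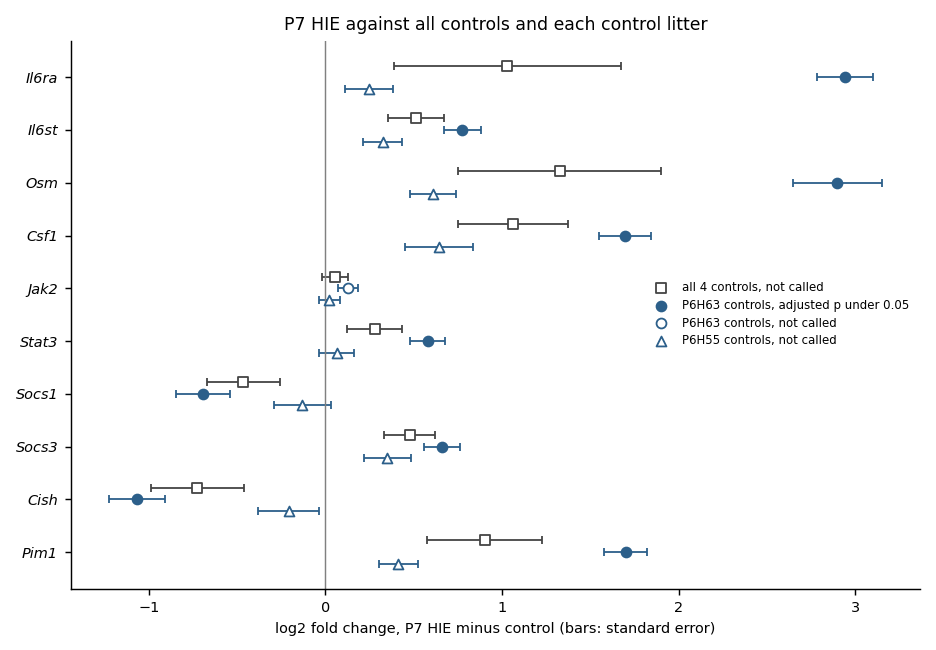
Log2 fold change (P7 HIE minus control, edgeR) of each of the 10 genes against all 4 controls (squares), the P6H63 controls (circles) and the P6H55 controls (triangles), with bars of 1 standard error and filled symbols for an adjusted p under 0.05. Filled symbols appear against P6H63 alone, and Osm lies at 2.90 against P6H63 and at 0.61 against P6H55.

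The 2 control litters were also set against each other, a comparison chosen after seeing the data. In P6H63 relative to P6H55, 7 of the 10 genes were called, 1 higher and 6 lower, beside 37.4% of 23524 genes tested, and the median log2 fold change was -0.49 over the 10 and -0.01 over all genes. Il6ra (-2.70 ± 0.24, adjusted p = 0.00201), Osm (-2.29 ± 0.32, adjusted p = 0.00441) and Pim1 (-1.29 ± 0.11, adjusted p = 0.00201) differed most. Csf1 (-1.05 ± 0.29, adjusted p = 0.0348), Stat3 (-0.52 ± 0.11, adjusted p = 0.0177) and Il6st (-0.46 ± 0.13, adjusted p = 0.0365) were lower too, and Cish was higher (0.85 ± 0.16, adjusted p = 0.012). For Il6ra, Osm, Pim1, Csf1, Stat3, Il6st and Cish, then, 2 litters of the same group, with different age labels, differed by edgeR. HIE against P6H55 gave no call by edgeR, whereas DESeq2 called Osm, Csf1 and Pim1. Adjusted p-values of these comparisons are not alike, since edgeR called 37.4% of all genes between the litters and 0.112% against P6H55. For Csf1 the unadjusted edgeR p was 0.0113 between the litters and 0.0111 for HIE against P6H55. With CPM scaled by library size alone the split between the litters was 2 higher and 3 lower, and the median of all genes went from -0.01 to 0.31.

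On P14 none of the 10 genes passed the test between any of the 3 groups. Between HIE and control, edgeR called 0 of the 10, beside 0.00478% of 20935 genes tested, 1 had an unadjusted p under 0.05, and DESeq2 called 0 of the 10, beside 2.37% of all genes. Between hypoxia and control, edgeR called 0, beside 0.00954% of all genes, with 2 at an unadjusted p under 0.05, and DESeq2 called 0, beside 0.807%. Between HIE and hypoxia, edgeR called 0, beside 0.00955%, with 1 at an unadjusted p under 0.05, and DESeq2 called 0, beside 0.0716%. The median log2 fold change over the 10 genes was 0.01 for HIE against control, 0.01 for hypoxia against control and -0.04 for HIE against hypoxia, and over all genes it was 0.01, -0.01 and -0.01. The first pair of comparisons shares the control animals. Mural marker sums were higher in HIE than in control without overlap (782 to 1250 against 488 to 632 CPM) and neuron sums lower (110 to 130 against 150 to 342 CPM). Hypoxia animals had higher mural sums than control too, at 709 to 1265 CPM. Astrocyte sums (2201 to 3233 against 1426 to 1925 CPM) and B cell sums (6.99 to 10.7 against 4.84 to 6.47 CPM) were higher in HIE than in hypoxia without overlap. The part of these sums was not tested. Animals did not overlap for 1 of the 10 genes between HIE and control (5.43% of all genes), for 2 between hypoxia and control (5.07%) and for 0 between HIE and hypoxia (2.66%).

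Socs1, which restrains interferon and IL-2 family receptors, was at 1.46, 1.16, 0.72 and 1.66 CPM in P14 HIE, at 1.27, 1.61, 1.20 and 0.865 CPM in hypoxia and at 1.72, 2.17, 1.98 and 1.89 CPM in control. Every treated animal lay below every control, though the gap between 1.66 and 1.72 CPM is small, and the lowest animal had 24 counts. The log2 fold change of Socs1 was -0.63 ± 0.28 for HIE (adjusted p = 0.511) and -0.65 ± 0.24 for hypoxia (adjusted p = 0.487) against the same controls. Il6st was at 727, 674, 558 and 729 CPM in HIE, at 512, 582, 454 and 558 CPM in hypoxia and at 570.5, 482, 646 and 495 CPM in control. Its values overlapped in all pairs of groups, with 3 HIE animals on top. Its log2 fold change was 0.29 ± 0.13 for HIE against control (adjusted p = 0.504) and 0.33 ± 0.13 for HIE against hypoxia (adjusted p = 0.999), the smallest p of the 10 in both comparisons. Stat3 was at 199, 232, 118 and 132 CPM in HIE, at 222, 153, 186 and 203 CPM in hypoxia and at 146, 156, 134 and 162 CPM in control. The 2 HIE litters lay on either side of the controls, P4H1 above and P6H12 below. For hypoxia against control the log2 fold change of Stat3 was 0.35 ± 0.12 (adjusted p = 0.475), and 0.27 with P6H animals alone (adjusted p = 0.813). Between HIE and hypoxia Cish, with the second smallest p, differed by 0.35 ± 0.22 (adjusted p = 0.9998).

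Socs3 was at 180.3, 342, 155 and 171 CPM in P14 HIE, at 348, 184, 191 and 246 CPM in hypoxia and at 196, 186, 255 and 211 CPM in control. HIE replicate 2 and hypoxia replicate 1 stood above the rest at 342 and 348 CPM, and the summed CPM of 9 immediate early genes was highest in the same animals of each group, at 9747 and 11160. The part of the immediate early genes in Socs3 was not tested. Osm was at 35.7, 62.7, 27.2 and 35.3 CPM in HIE, at 49.8, 40.4, 55.9 and 31.6 CPM in hypoxia and at 39.4, 39.3, 44.1 and 39.9 CPM in control. HIE replicate 2 was also highest for Osm, and the controls were the tightest group. Csf1 was at 71.5, 112, 89.8 and 83.9 CPM in HIE, at 80.9, 67.0, 109.9 and 69.1 CPM in hypoxia and at 82.5, 93.9, 71.6 and 96.4 CPM in control. For Csf1 the ranges of the 3 groups were nearly the same.

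Pim1 was at 22.0, 41.0, 20.7 and 28.2 CPM in P14 HIE, at 24.1, 32.8, 26.9 and 13.7 CPM in hypoxia and at 34.7, 21.5, 23.0 and 43.3 CPM in control. Within each group the highest animal had at least 1.98 times the level of the lowest. Il6ra was at 279, 339, 303 and 341 CPM in HIE, at 416, 247.5, 346 and 343 CPM in hypoxia and at 278, 372, 307 and 318 CPM in control. Jak2 was at 87.1, 89.1, 87.6 and 81.0 CPM in HIE, at 88.3, 86.2, 89.0 and 98.0 CPM in hypoxia and at 84.4, 83.9, 86.1 and 76.4 CPM in control. Every hypoxia animal exceeded every control for Jak2, by as little as 86.2 against 86.1 CPM. Cish was at 2.96, 4.19, 3.93 and 4.14 CPM in HIE, at 2.88, 2.69, 3.85 and 2.35 CPM in hypoxia and at 3.37, 3.65, 3.00 and 5.07 CPM in control. Il6ra and Cish overlapped in all pairs of groups.

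From P7 to P14, Csf1, Osm, Pim1 and Socs1 fell in HIE animals and Jak2 rose. Of the 10 genes 5 were called, beside 46.0% of 22578 genes tested, and the median log2 fold change was -0.25 over the 10 and 0.02 over all genes. Csf1 changed most, from 503 ± 38.2 (SD, n = 4) to 89.4 ± 17.2 CPM (SD, n = 4), each scaled within its day. In the fit over both days its level was 5.26-fold lower (log2 fold change -2.40, SE 0.14, adjusted p = 1.4e-06 by edgeR). Pim1 went from 97.3 ± 11.9 to 28.0 ± 9.27 CPM (SD, n = 4 each), or -1.70 ± 0.20 on the log2 scale (SE, adjusted p = 0.000119 by edgeR), and Osm from 102 ± 10.2 to 40.2 ± 15.5 CPM (SD, n = 4 each), or -1.24 ± 0.22 on the log2 scale (SE, adjusted p = 0.00131 by edgeR). For these 3 genes and Socs1 (-1.12 ± 0.25, adjusted p = 0.0045), no P14 HIE animal reached the P7 HIE range. The same held for Il6ra and Cish, which were not called, and for Jak2 every P14 HIE animal lay above it. Such ranges, with CPM scaled within each day, did not overlap for 45.5% of all genes. Jak2 rose by 0.26 ± 0.07 on the log2 scale (adjusted p = 0.0094), and this call was lost without the filter on low counts (0.23, adjusted p = 0.0543). The summed immediate early genes moved with the day as well, from 16422 to 18278 CPM in P7 HIE to 5185 to 9747 CPM in P14 HIE. Marker sums of microglia (16976 to 20135, then 21829 to 32414 CPM), oligodendrocyte lineage (209 to 330, then 608 to 2063 CPM) and erythroid cells (17.9 to 36.8, then 120 to 384 CPM) were higher on P14 without overlap, as were those of endothelial, mural, astrocyte and neuron lists. These sums, like those of the immediate early genes, were scaled within each day, so that P7 and P14 sums are not on a common scale. The part of these sums in the changes of the 10 genes was not tested. Day, deposited table and depth cannot be told apart here.

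In controls from P7 to P14, 4 of the 10 genes were called, beside 33.0% of 22320 genes tested, with a median of 0.10 over the 10 and -0.02 over all genes. Csf1 (-1.36 ± 0.31, adjusted p = 0.0138), Socs1 (-0.93 ± 0.24, adjusted p = 0.0193) and Cish (-0.99 ± 0.29, adjusted p = 0.0334) fell, and Jak2 rose (0.28 ± 0.09, adjusted p = 0.0433). This call of Jak2 was lost with DESeq2 size factors (0.27, adjusted p = 0.0638), with library size alone (0.07, adjusted p = 0.596), without the filter (0.24, adjusted p = 0.185) and without any 1 animal other than P7 control replicate 3. With the P6H55 controls alone on P7, a set chosen after seeing the data, 3 of the 10 were called, all lower on P14, beside 31.2% of 22151 genes: Csf1 (-1.79 ± 0.20, adjusted p = 0.000881), Pim1 (-1.14 ± 0.26, adjusted p = 0.0145) and Osm (-0.60 ± 0.13, adjusted p = 0.00996). The calls of Socs1 (-0.61, adjusted p = 0.0872), Cish (-0.48, adjusted p = 0.171) and Jak2 (0.24, adjusted p = 0.0868) were then lost, so that Csf1 was the 1 gene of the 10 called in both sets of controls. Csf1, Osm and Pim1 thus fell with day in HIE animals and in the controls of P6H55. With CPM scaled within each day, Osm averaged 40.6 ± 31.7 CPM (SD, n = 4) in P7 controls and 40.7 ± 2.31 CPM (SD, n = 4) in P14 controls. The P7 mean lies between litters at 14.0 and 67.3 CPM.

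**Figure D5:**
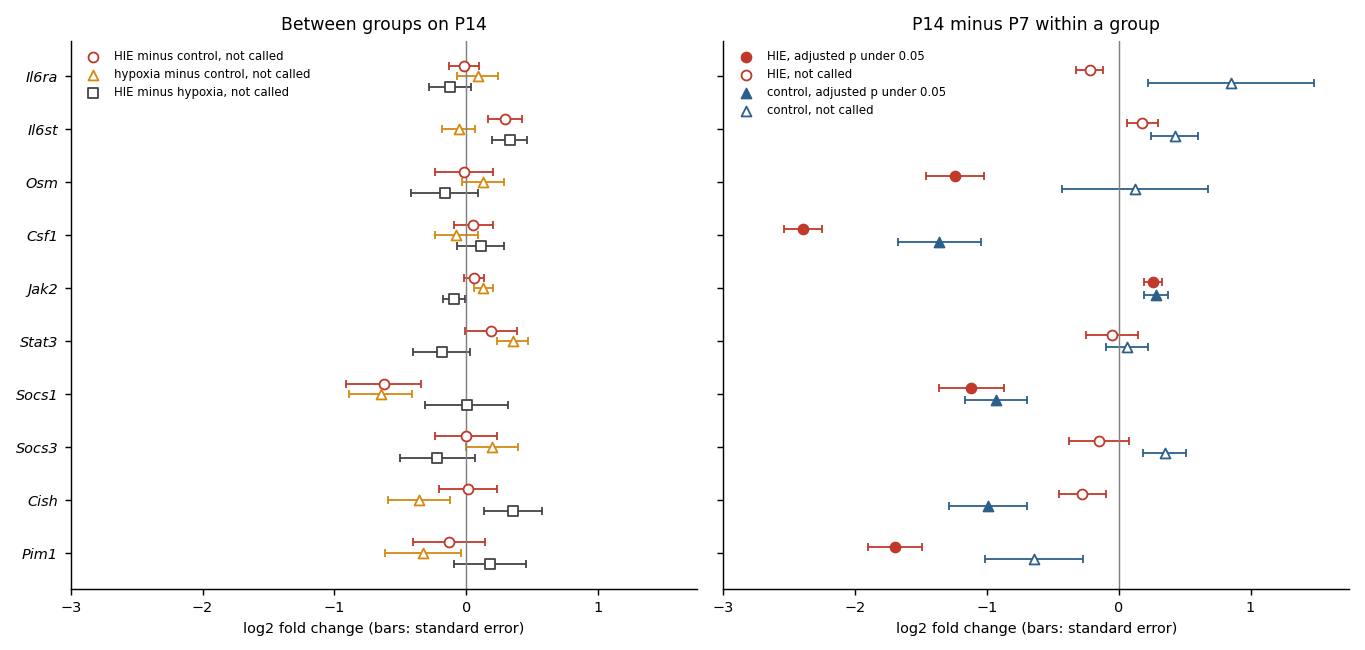
Log2 fold changes (edgeR, bars of 1 standard error) of the 10 genes between the P14 groups on the left and from P7 to P14 within HIE and within control on the right, with filled symbols for an adjusted p under 0.05. No symbol is filled on the left, and on the right Csf1 lies at -2.40 in HIE and at -1.36 in control.

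Whether the HIE-control difference itself differed between the days was tested with an interaction term chosen after seeing the data. With all P7 controls 0 of the 10 genes were called by edgeR, beside 0.00405% of 24695 genes, and 3, Csf1, Pim1 and Cish, had an unadjusted p under 0.05. The P7 difference exceeded that of P14 by 1.00 ± 0.36 on the log2 scale for Csf1 (adjusted p = 0.242), 1.02 ± 0.45 for Pim1 (adjusted p = 0.337) and 1.33 ± 0.64 for Osm (adjusted p = 0.367), and for Cish it lay the other way at -0.75 ± 0.35 (adjusted p = 0.35). With the P6H55 controls alone, 0 of the 10 were called, beside 0.00% of 25849 genes, and 1 had an unadjusted p under 0.05. The values were then 0.59 ± 0.25 for Csf1 (adjusted p = 0.536), 0.54 ± 0.36 for Pim1 (adjusted p = 0.757), 0.62 ± 0.31 for Osm (adjusted p = 0.614) and -0.22 ± 0.29 for Cish (adjusted p = 0.918). DESeq2 was not run on this term.

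Another 75 genes of these pathways, of which 70 to 72 were tested in each comparison, were read from a second list. Between P7 HIE and all controls edgeR called 0 of 72, with 24 at an unadjusted p under 0.05. Among the smallest p-values was that of Il34, a second ligand of CSF1R (3.42 to 4.50 CPM in HIE, 5.66 to 16.6 CPM in control, log2 fold change -1.37 ± 0.35, adjusted p = 0.15). Against P6H63, 47 of 72 were higher and 14 lower, beside 58.5% of all genes called in either direction, led by Csf1r, the CSF1 receptor (5151 to 5555 CPM in HIE, 387 to 609 CPM in P6H63), by Spi1, the transcription factor PU.1 of myeloid cells, and by Il10, an anti-inflammatory cytokine. Their log2 fold changes were 3.45 ± 0.20 (adjusted p = 1.32e-05), 3.34 ± 0.19 (adjusted p = 1.26e-05) and 3.33 ± 0.45 (adjusted p = 0.000489). Microglia marker sums were low in P6H63, whereas monocyte marker sums were 84.8 and 94.0 CPM there against 58.0 to 86.1 CPM in P7 HIE. Of the 6 further receptors of the IL-6 family, 5 were lower in HIE than in P6H63 and 0 higher. Between P6H63 and P6H55, 10 of 72 were higher in P6H63 and 40 lower, beside 37.4% of all genes called.

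Against P6H55 edgeR called 0 of 72 of that list, with 29 at an unadjusted p under 0.05. The smallest p-values were those of Csf3r, the receptor of granulocyte colony stimulating factor (163 to 221 CPM in HIE, 90.2 to 116 CPM in P6H55, 0.91 ± 0.15, adjusted p = 0.115), and Ptpn6, a phosphatase of hematopoietic cells (209 to 223 against 162 to 172 CPM, 0.38 ± 0.07, adjusted p = 0.141). The median log2 fold change over the list was 0.16, against -0.02 over all genes. Il6 itself was low, at 2.49 to 5.96 CPM in P7 HIE and 2.84 to 4.46 CPM in P6H55, with a log2 fold change of 0.03 and an adjusted p of 0.975. Its receptor gene Il6ra, by contrast, was among the better expressed of the 10.

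On P14 the list gave no call either, with 7 of 71 at an unadjusted p under 0.05 between HIE and control, 6 of 70 between hypoxia and control and 2 of 71 between HIE and hypoxia. Stat4, a STAT of IL-12 signaling (0.363 to 0.621 CPM in HIE, 0.0868 to 0.228 CPM in control, 1.65 ± 0.40, adjusted p = 0.238), and Adam17, a sheddase that releases the IL-6 receptor from the cell surface (195 to 248 against 143 to 183 CPM, 0.38 ± 0.11, adjusted p = 0.277), had the smallest p-values for HIE. For hypoxia they were Il34 (0.82 ± 0.23, adjusted p = 0.462) and Vegfa, which encodes an angiogenic factor induced by low oxygen (-0.36 ± 0.12, adjusted p = 0.475). Between HIE and hypoxia they were Il27ra (0.70 ± 0.29, adjusted p = 0.999) and Mcl1 (-0.25 ± 0.11, adjusted p = 0.999). The lowest Stat4 level in P14 control, 0.0868 CPM, lies within the 0.0762 to 0.101 CPM that 3 counts make in those libraries. From P7 to P14 in HIE 7 of 72 rose and 28 fell, beside 46.0% of all genes called, and among the latter were 8 of 13 STAT3 target genes. The list median was -0.16. Lif, which encodes leukemia inhibitory factor (2.71 to 6.21 CPM on P7, 0.231 to 0.537 CPM on P14, -3.09 ± 0.37, adjusted p = 0.000116), and Il10 (3.04 to 7.73 CPM, then 0.15 to 0.697 CPM, -3.36 ± 0.43, adjusted p = 0.000182) fell most beside Csf2, at 0.366 to 1.13 CPM on P7 and at most 0.0847 CPM on P14. In controls 3 of 71 rose and 7 fell, beside 33.0% of all genes called, with Lif (-1.92 ± 0.54, adjusted p = 0.028), Ctf1 (-1.64 ± 0.45, adjusted p = 0.0255) and Csf3r (1.60 ± 0.54, adjusted p = 0.0493) changing most.

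Across the 12 P14 animals, the genes whose log2 CPM was most like that of each of the 10 were sought among 21679 genes, as a description, since the animals share litters and batches. For Socs3 they included Fos (Pearson r = 0.944) and Klf6 (0.942), both immediate early genes. Pim1 was most like the cytokine gene Il1b (0.900), Rasgef1b (0.898) and the scavenger receptor gene Msr1 (0.884), and Osm most like Dnajb5 (0.932), H2-K2 (0.925) and Trib1 (0.877). Il6ra followed Kcnk6 (0.957), Mef2a (0.935) and Parp12 (0.934), and Il6st followed Calhm5 (0.909), Pafah2 (0.903) and Clasp2 (0.903). For Csf1 they were Trim7 (0.918), Zfp628 (0.907) and Pml (0.898). Jak2 was nearest Xiap (0.945), Usp25 (0.905) and Gm45546 (0.903), and Stat3 nearest Kcp (0.939), Cndp2 (0.926) and Snx12 (0.919). The low genes Socs1 and Cish were nearest Pcsk4 (0.917), Trex1 (0.877) and Gm10419 (0.871), and Mtss1 (0.914), Mapkbp1 (0.892) and Spata2l (0.873). Among the 10 themselves the highest r over the 12 animals was 0.80, for Csf1 with Cish, followed by 0.70 for Stat3 with Socs3 and 0.65 for Osm with Socs3, and the lowest was -0.70, for Jak2 with Cish.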

How the data were processed

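CD11b+ cells were isolated from whole brain, and libraries were prepared from total RNA after depletion of ribosomal RNA. Read quality was checked with FastQC, and alignment to GRCm39 used STAR in Sentieon's implementation. The authors deposited the expected counts that RSEM estimates per gene, unscaled, in 1 table for P7 and 1 for P14. Between 84.2 and 88.0% of the values in a library were whole numbers, and RSEM divides reads that match several genes. Expected counts were rounded and summed over the libraries of an animal. The 2 libraries of each of 2 animals differed by a chi-square of 5.24 and 9.16 per gene, against 25.5 to 85.1 between different animals. Of 56691 gene identifiers 56017 matched GENCODE M39, which gave symbols, positions, exon lengths and canonical transcripts, and 674 did not. Sequences were read from the GRCm39 assembly.

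The members, the gene lists and the comparisons were chosen with earlier results of these data known. Groups came from the sample labels and litters from animal names. Each comparison used the quasi-likelihood F test of edgeR 4.0.16 in R 4.3.3 on its own groups, with TMM scaling, the package's filter on low counts, no covariate and Benjamini-Hochberg adjustment over all genes tested, and a gene was called at an adjusted p under 0.05. DESeq2 1.42.0 was run on the same genes. CPM were scaled by TMM within each day, so that CPM of P7 and P14 are not on a common scale. Log2 CPM used a prior count of 2. The procedure was tested beforehand on simulated counts of HIE and control, with a log2 fold change of 2 in either direction set in 200 genes. It recovered 65% of these on P7 and 83.5% on P14, and 13 of 143 and 14 of 181 calls were false. All 10 genes are named in every group. Fold changes are given for all 10 on P7, and elsewhere for those called or, where fewer than 2 were called, for those with the 2 smallest p-values. Of the 75 further pathway genes, the 3 called with the largest fold changes or, with none called, the 2 with the smallest p-values are named, besides Il6. Alternatives were other scalings, no filter, another fit, DESeq2, the first library of an animal, sex labels, name prefixes, 1 fit over the 3 P14 groups and leaving out each animal. Some genes that these rules select are not reported here. Protein sequences were not used here.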

Additional observations from a re-analysis of the deposited data

Results flagged for a closer look

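Among 50 groups of 4 animals (10 genes in 5 groups), 3 held an animal far from the other 3 by Dixon's criterion, which chance meets in about 1 in 20 groups. Osm was at 44.1 CPM in P14 control replicate 3, against 39.3 to 39.9 CPM in the other P14 controls, a group with a narrow range. Socs3 was at 226.8 CPM in P7 control replicate 4, against 159.7 to 170.9 CPM in the other P7 controls, and this is the animal labelled female that had neither Xist nor Ddx3y above 10 CPM. Socs3 was at 342.2 CPM in P14 HIE replicate 2, against 155 to 180.3 CPM in the other P14 HIE animals, and this animal had the highest immediate early sum of its group, 9747 CPM.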

How the results depend on the processing

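No paired analysis was possible because the replicate numbers name animals in accession order and tie no animal of one group to one of another. Between P7 HIE and all controls the number of the 10 genes called went from 0 to 3 with DESeq2, beside 13.4% of all genes. It was 0 to 4 when each animal was left out in turn. The 4 were without P7 control replicate 3, where 5589 of 23060 genes were called, against 15 of 22517 in the main fit. Between P7 HIE and P6H55 it went from 0 to 3 with DESeq2, beside 4.20% of all genes, and stayed at 0 without any 1 HIE animal. Without any 1 HIE animal it was 9 against P6H63, beside 12799 of 23550 to 13389 of 23590 genes. Leaving out a control there or between the litters left 1 animal in a group, so no count is given. With an animal left out, it was 5 to 6 from P7 to P14 in HIE (8996 of 23311 to 11562 of 23250 genes). It was 2 to 4 in controls (4858 of 23943 to 8630 of 22139 genes) and 0 in each P14 comparison. In controls it was 2 without P7 control replicate 1 or 2 or without P14 control replicate 1, 2 or 3. The log2 fold change of Jak2 turned negative with library size alone, at -0.15 on P7 against all controls, -0.25 against P6H63 (edgeR adjusted p = 0.00719) and -0.0351 against P6H55. That scaling moved the median of all genes from -0.08 to -0.28, from -0.02 to -0.39 and from -0.02 to -0.08 in these comparisons, and from -0.02 to -0.23 from P7 to P14 in controls. Against P6H63 it gave 6 higher and 3 lower calls among the 10, and 3563 higher and 11127 lower among all genes, against 6581 and 7324 with TMM. With 1 animal left out, Jak2 against P6H55 ran from -0.0045 (without P7 control replicate 4) to 0.0790, with -0.0041 without P7 HIE replicate 3. The causes were not tested. Of the other single-gene values with no animal left out, 281 kept direction and side of the threshold, 6 gained a call and 11 lost one. With an animal left out, 318 kept both, 7 gained a call, 21 lost one and 2 reversed, those of Jak2 above. With 4 animals a group and 2 a litter, small differences could not be told from the spread. Socs1 and Cish rest on as few as 24 and 87 counts.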

Other observations

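Other receptors of the IL-6 family, chosen after their values were seen, lay opposite to the ligand gene Osm on P7. Osmr, the specific receptor subunit for oncostatin M, was at 11.0 to 13.1 CPM in P7 HIE, 30.9 to 33.1 CPM in P6H63 and 15.5 to 15.9 CPM in P6H55, with a log2 fold change of -1.35 ± 0.09 against P6H63 (edgeR adjusted p = 2.06e-05) and -0.35 ± 0.10 against P6H55 (edgeR adjusted p = 0.216). Lifr, the receptor subunit for leukemia inhibitory factor, was at 73.5 to 78.6 CPM in P7 HIE, 129 to 142 CPM in P6H63 and 81.6 to 88.7 CPM in P6H55, with -0.78 ± 0.06 against P6H63 (edgeR adjusted p = 3.45e-05) and -0.14 ± 0.07 against P6H55 (edgeR adjusted p = 0.335). Both were higher in P6H63 than in P6H55. Endothelial, mural and astrocyte marker sums were higher in P6H63 too, and the part of those cells was not tested.

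Csf1r was at 5151 to 5555 CPM in P7 HIE, 387 to 609 CPM in P6H63 and 3738 to 4464 CPM in P6H55. All HIE pups lay above the P6H55 controls, with a log2 fold change of 0.38 ± 0.11 (edgeR adjusted p = 0.222), beside 25.7% of all genes without overlap there. Csf1 was also highest in HIE pups among the P7 animals, without a call by edgeR against P6H55. Microglia marker sums had the same order, at 16976 to 20135 CPM in HIE, 14852 to 15482 CPM in P6H55 and 2628 to 3564 CPM in P6H63, and their part was not tested. Il34, the second ligand of CSF1R, went the other way, lower in every HIE pup than in every P7 control, beside 17.0% of all genes without overlap. Choroid plexus, endothelial and mural marker sums were also lower in every HIE pup than in every P7 control, and their part was not tested.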
